A study of Mus musculus with 10 samples.

Results

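The cells described here are epithelial cells from mouse lower incisor buds at the embryonic stages E14.5 and E16.5 (E counts days of gestation). They were read by droplet single-cell RNA sequencing, in which each captured transcript is counted once as a UMI (unique molecular identifier). The study asked when the epithelial stem cells of the incisor are specified, and the comparison of both stages addresses what distinguishes the epithelium of the early tooth germ from that of the later one. Wild type NMRI embryos were used at both stages, lower incisor buds were dissected and dissociated with Collagenase P, and no treatment or transgene was applied. According to the labels, E14.5 has 4 samples and E16.5 has 2, but each stage was deposited as 1 matrix whose barcodes carry a single suffix, so cells could not be assigned to samples or litters.

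The cells were chosen by measured UMIs. A cell was taken as epithelial when at least 3 of 9 epithelial genes (Epcam, Krt5, Krt14, Krt17, Dsp, Dsc3, Dsg2, Sfn, Trp63) had a UMI and at most 1 of 3 mesenchymal genes (Pdgfra, Prrx1, Twist1) did, after removal of cells under 700 genes or over 20% mitochondrial UMIs. The rule took 2509 of 10602 cells past the filter, and the whole series holds 22619 barcodes. At E14.5 it took 852 of 6091 cells (13.99%, 95% Clopper-Pearson interval 13.1 to 14.9%), and at E16.5 it took 1657 of 4511 (36.7%, 35.3 to 38.2%). Both shares are of the cells in these matrices. The 9 and 3 genes of the rule are not results here.

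The tooth epithelium grows from a bud into a cap and then a bell, and signals from the enamel knot, a transient cluster of cells that secrete Shh, Fgf4 and other ligands, direct this folding. In the incisor the labial epithelium forms the cervical loop, which houses Sox2-expressing stem cells, and their progeny in the inner enamel epithelium later become ameloblasts, the cells that secrete enamel. Sp6 and Pitx1 are transcription factors of dental epithelium, whereas Krt15 and Meis2 were taken here as marks of epithelium outside the tooth.

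Some markers that the rule did not use were read as well. With each cell thinned to 2000 UMIs, a Pitx1 UMI was found in 22.4% of E14.5 and 16.9% of E16.5 epithelial cells, against 4.70% and 0.684% of mesenchymal cells. Before thinning the epithelial shares were 49.1% and 44.0%. Pitx1 is 1 of 12 dental identity genes read here. Together these summed to 736 CPM and 1085 CPM in epithelial cells, against 191 CPM and 408 CPM in mesenchymal cells. Not every member was higher in epithelium: Lef1 was higher in mesenchyme at both stages. Whether all cells taken lay in the tooth was not tested. A minority carried a Krt15 or Meis2 UMI, 99 of 787 thinned cells at E14.5 (12.6%, 10.3 to 15.1%) and 52 of 1546 at E16.5 (3.36%, 2.52 to 4.39%). The share of cells with these marks was thus larger at E14.5. Whether such cells lay outside the tooth was not tested. Pooled transcripts of endothelial, immune, glial and muscle marker lists stayed under 35 CPM (UMIs of a gene scaled to the same total per stage) at both stages, the highest being endothelium with 30.5 CPM at E14.5 and 34.3 CPM at E16.5. Erythroid transcripts were not low. Their list summed to 8835 CPM and 5594 CPM in epithelial cells, and to 7302 CPM and 4477 CPM in mesenchymal cells. The 12 further mesenchymal genes, among them Col1a1, Col1a2 and Runx2, summed to 327 CPM and 420 CPM in epithelial cells, against 3479 CPM and 5185 CPM in mesenchymal cells.

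Some cells lay at the edge of the rule and were shallower than the rest. Exactly 3 epithelial genes, just inside the rule, were found in 128 E14.5 cells with a median of 3255.5 UMIs and in 97 E16.5 cells with a median of 2690. Exactly 2, just outside, were found in 170 E14.5 cells with a median of 2691 UMIs and in 130 E16.5 cells with a median of 3751. Median depth was 4960 UMIs at E14.5 (1067 to 73783) and 7149 at E16.5 (1061 to 123785), with 1836.5 and 2442 genes per cell and a median mitochondrial share of 2.59% and 3.59%. Thinning to 2000 UMIs left out 65 and 111 shallower cells. No barcode sequence met the rule in both matrices, among 16 that the matrices shared.

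Epithelial cells of both stages had broadly similar transcriptomes. Genes were ranked if 10% or more of the thinned cells of either stage held a UMI and the counts summed to 50 or more. Of the 2883 ranked genes, 89.7% lay within 1.5-fold, and the median log2 ratio of E16.5 over E14.5 was 0.03 with 10 CPM added to both levels. At least 2-fold higher at E16.5 were 61 genes (2.12% of those ranked), and at least 2-fold lower were 15 (0.52%). Of the 61, Krt5 and Trp63 belong to the rule. A gene that reached the 10% share at a single stage had, through the filter itself, a higher share there: this holds for 42 of the 61, which reached it at E16.5 only, and for 11 of the 15, which reached it at E14.5 only, so the counts are descriptions. The counting interval excluded equality for all 76 genes, but it covers counting error alone: with 1 matrix a stage there was no test, and stage, litter and library cannot be told apart.

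**Figure D1:**
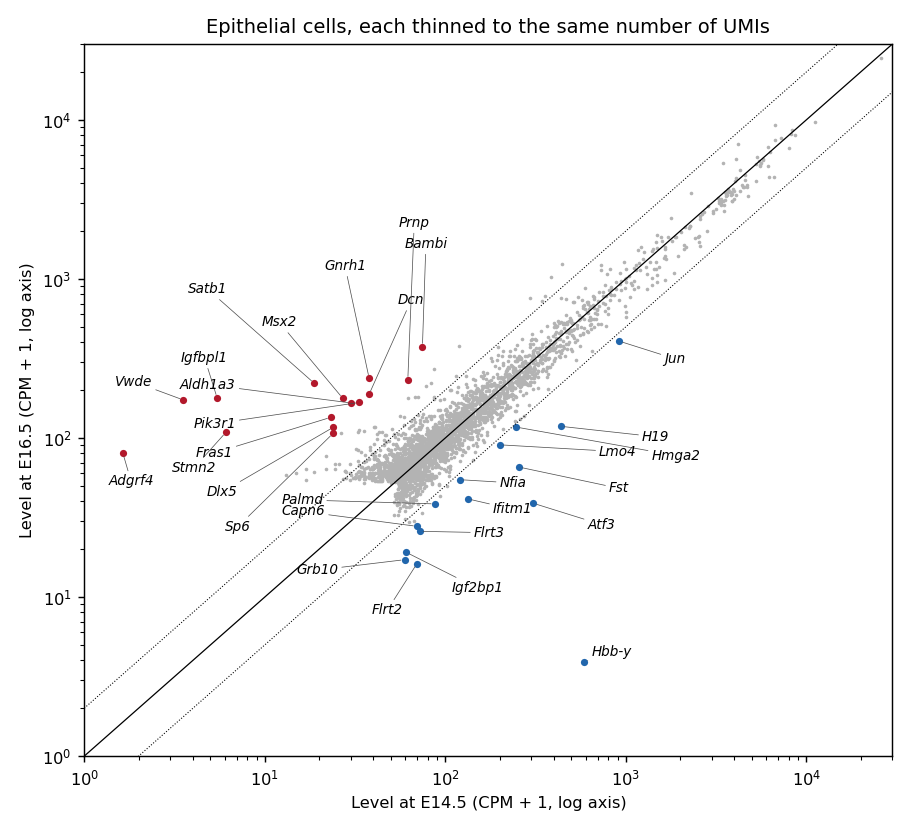
Level of each ranked gene in epithelial cells at E14.5 (horizontal) and E16.5 (vertical), in CPM with 1 added, on log axes. The solid line marks equal levels and the dotted lines a 2-fold difference. The 15 genes with the highest ratio are red and the 15 with the lowest are blue. Vwde, Igfbpl1 and Adgrf4 stand near the left edge and Hbb-y stands alone at the lower right.

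Vwde, Igfbpl1 and Adgrf4 were almost absent from the early epithelium and common in the later one. Vwde, which encodes a secreted protein with von Willebrand factor and EGF-like domains (chr6:13156299-13224965, minus strand, GRCm38), had 4 UMIs in 4 of 787 cells at E14.5 and 533 UMIs in 307 of 1546 cells at E16.5. Its level was 2.54 CPM (0.692 to 6.51) at E14.5 and 172 CPM (158 to 188) at E16.5, a 67.8-fold ratio (26.3 to 250). Igfbpl1, an insulin-like growth factor binding protein-like gene (chr4:45809468-45826923), had 4.45 CPM (1.79 to 9.16) and 178 CPM (163 to 193), in 0.635% and 18.8% of cells. Adgrf4, an adhesion G protein-coupled receptor (chr17:42656891-42692284), had a single UMI at E14.5 and 246 at E16.5, a 125-fold ratio with a counting interval from 22.3 to 4966.

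None of the 3 was common in mesenchyme of the same matrices. A Vwde UMI was present in 0.798% of E16.5 mesenchymal cells, against 19.9% of E16.5 epithelial cells (33.1% before thinning). For Igfbpl1 the mesenchymal share was 0.342%.

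The 250 bases before the annotated start are shown for Vwde and Adgrf4. Of the 15 highest genes, these have the highest ratios among those that RefSeq's promoter table for GRCm38.p6 covers. The genes lower at E16.5 were not looked up. Capitals mark TAATTA, the core letters that homeodomain proteins of the Msx and Dlx families bind, which reads alike on both strands. Both are on the minus strand and written 5′ to 3′, from chr6:13224966-13225215 and chr17:42692285-42692534.
Vwde: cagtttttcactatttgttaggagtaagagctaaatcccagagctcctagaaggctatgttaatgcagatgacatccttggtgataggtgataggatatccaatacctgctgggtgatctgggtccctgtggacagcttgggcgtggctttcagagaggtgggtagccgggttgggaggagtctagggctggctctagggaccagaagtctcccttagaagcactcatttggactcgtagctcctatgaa
Adgrf4: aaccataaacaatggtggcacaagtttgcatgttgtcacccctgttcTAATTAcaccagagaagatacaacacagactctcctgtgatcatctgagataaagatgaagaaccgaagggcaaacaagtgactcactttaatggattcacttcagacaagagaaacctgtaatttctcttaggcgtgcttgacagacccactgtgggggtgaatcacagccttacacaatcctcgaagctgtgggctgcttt
TAATTA occurred once in the Adgrf4 window, 203 bases before the start, and not in that of Vwde. Of 27025 genes with such a window, 4.90% held it. Of the 15 highest genes, 6 had an entry in the table, and of the first listed window of each, those of Adgrf4 and Msx2 held TAATTA. The RefSeq window of Msx2 lies inside the gene as GENCODE annotates it, so it is not upstream of the GENCODE start and is not shown. A match is a description of the letters alone.

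Satb1, Msx2, Sp6 and Dlx5, among the 15 genes with the highest ratio, encode nuclear factors. Satb1, a chromatin organiser (chr17:51736187-51833290), was at 17.8 CPM (11.8 to 25.7) at E14.5 and 220 CPM (204 to 237) at E16.5, and its share of cells went from 3.30% to 30.7% (10.1% to 60.2% before thinning; 2.74% of E16.5 mesenchymal cells). Satb1 overlaps 5 other transcripts on its strand, so its counts may be shared with them. Msx2, a homeobox gene downstream of BMP signals (chr13:53466884-53473074), was at 26.1 CPM and 177 CPM, a log2 ratio of 2.37 (2.02 to 2.72). Sp6, a zinc-finger factor of ameloblast development (chr11:97013394-97024734), was at 22.9 CPM and 106 CPM (log2 ratio 1.82). Dlx5, a homeobox gene of jaw and teeth (chr6:6877805-6882085), was at 22.9 CPM and 115 CPM (1.93), and its relatives Dlx3 and Dlx2 had log2 ratios of 1.30 and 1.16. The Dlx genes were higher in mesenchyme too, with log2 ratios of 1.29 for Dlx5, 1.56 for Dlx3 and 1.07 for Dlx2. Msx2 had a mesenchymal ratio of 1.28.

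Others of the 15 encode secreted, membrane or matrix proteins. Bambi, a decoy receptor that dampens BMP and TGF-beta signals, was the most abundant of the 15, at 73.7 CPM (60.9 to 88.4) and 372 CPM (351 to 394), and was found in 13.2% and 45.1% of cells. Fras1, a protein of the epithelial basement membrane (chr5:96373955-96784728), was at 22.2 CPM and 134 CPM, with a log2 ratio of 2.16 in epithelium and 0.15 in mesenchyme. Gnrh1, the precursor of gonadotropin-releasing hormone (chr14:67745181-67749439), was at 36.9 CPM (28.0 to 47.6) and 237 CPM (220 to 255), in 6.61% and 21.0% of cells. Stmn2, a microtubule regulator best known from neurons, was at 5.08 CPM and 107 CPM. In mesenchyme Stmn2 went the other way, at 79.1 CPM and 54.2 CPM.

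Aldh1a3, which makes retinoic acid, had a log2 ratio of 2.16 in epithelium and 2.16 in mesenchyme, and Prnp, the prion protein gene, 1.76 and 1.89. Both thus differed between the stages as much in mesenchyme as in epithelium. Dcn, the proteoglycan decorin of connective tissue, was at 36.9 CPM and 187 CPM in epithelial cells, above its mesenchymal level of 108 CPM at E16.5. Of the 12 further mesenchymal genes only 2 were ranked, and Dcn was the one called, against 2.12% of all ranked genes called higher. Dcn reached the share of cells at E16.5 only. Pik3r1, a regulatory subunit of phosphoinositide 3-kinase, was at 32.4 CPM and 166 CPM.

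Of the 15 genes, 13 reached the share needed for ranking at E16.5 only. For all 15 both the share of cells with a UMI and the number of UMIs per such cell were higher at E16.5, the share by at least 2.85-fold. Of the 15, 6 could be ranked in mesenchyme and 4 of these were at least 2-fold higher there, and 14 of the 15 stood above mesenchyme at E16.5, the exception being Dlx5. In mesenchyme, 85 of 2940 genes (2.89%) were at least 2-fold higher at E16.5 and 15 (0.51%) at least 2-fold lower. Of the 61 epithelial genes, 27 could be ranked in mesenchyme, and 10 were at least 2-fold higher there.

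**Figure D2:**
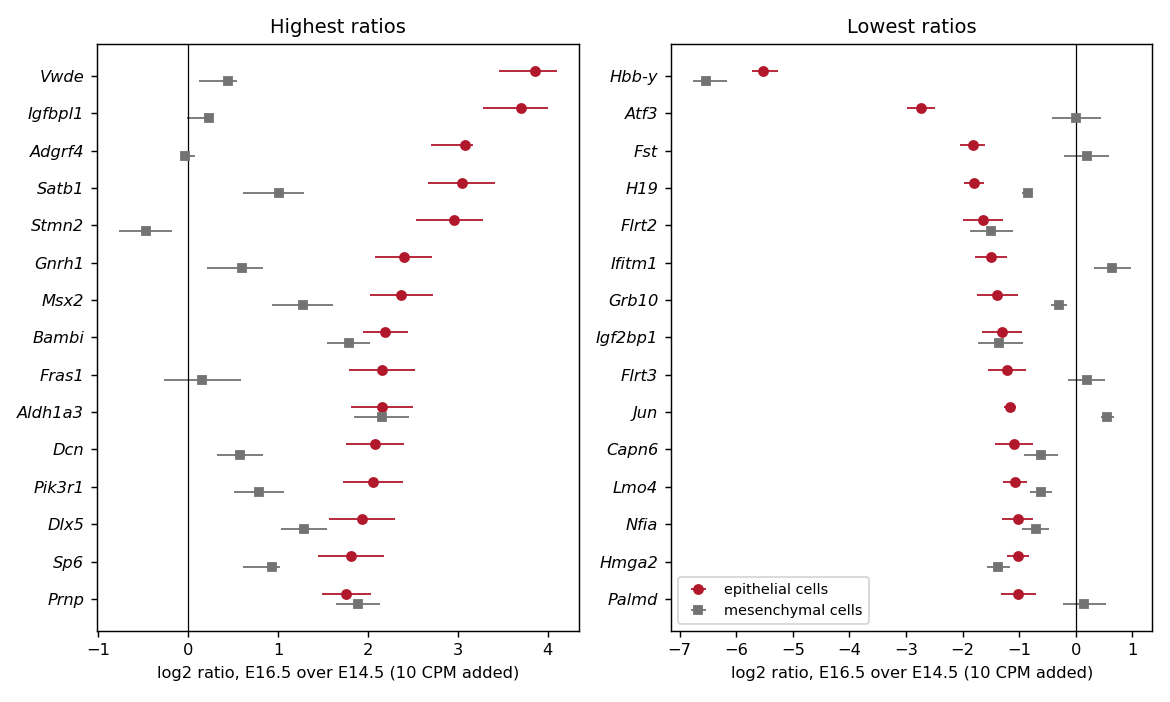
log2 ratio of E16.5 over E14.5 (10 CPM added) for the 15 genes with the highest ratio (left) and the 15 with the lowest (right), in epithelial cells (red circles) and mesenchymal cells (grey squares); bars are exact 95% counting intervals. Aldh1a3, Prnp, Bambi and Hbb-y lie close together or on the same side in both cell classes, whereas Vwde, Igfbpl1, Adgrf4, Atf3 and Fst are far from 0 in epithelium alone.

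Among the 15 genes lower at E16.5 were stress-response and signalling genes. Atf3, a stress-induced transcription factor (chr1:191170296-191218039), was at 307 CPM (280 to 335) at E14.5 and 37.8 CPM (31.3 to 45.3) at E16.5, 8.11-fold lower, with UMIs in 23.5% and 5.30% of cells (37.8% and 13.8% before thinning). In mesenchyme Atf3 was at 10.7 CPM and 10.8 CPM. Jun, a subunit of the AP-1 factor (chr4:95049034-95052222), was at 919 CPM and 405 CPM in epithelium, and at 373 CPM and 553 CPM in mesenchyme, so the 2 cell classes went in opposite directions. Of the 11 immediate early and heat shock genes ranked in epithelium, Atf3 and Jun were lower and none higher. The median log2 ratio of the 11 was -0.30. Over all genes ranked in epithelium 0.52% were lower and 2.12% higher. Of the 11, 2 reached the share needed for ranking at E14.5 only. Atf3 is one of these, so its direction follows from the filter. In mesenchyme 11 genes of the list were ranked, of which 5 were at least 2-fold higher and 0 lower, with a median of 0.58. Over all genes ranked in mesenchyme 2.89% were higher and 0.51% lower. In epithelium Fos, at 212 CPM and 192 CPM, and Junb, at 71.2 CPM and 76.3 CPM, were near equal.

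Fst, follistatin, a secreted antagonist of activin and BMP (chr13:114452290-114458951), was at 254 CPM (230 to 280) and 64.7 CPM (56.0 to 74.3), 3.93-fold lower at E16.5, while mesenchyme had 21.7 CPM and 26.2 CPM. Flrt2 and Flrt3, adhesion proteins linked to FGF signalling, had log2 ratios of -1.64 and -1.22. Of these, Flrt2 was also lower in mesenchyme (-1.50), and Flrt3 was not (0.19).

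H19 and Grb10, both imprinted, were lower as well. H19, an imprinted long noncoding RNA (chr7:142575529-142578143), was at 435 CPM (403 to 469) and 117 CPM (106 to 130) in epithelium, and at 1113 CPM and 615 CPM in mesenchyme. Grb10, an imprinted adaptor that restrains growth factor signals, was at 58.5 CPM and 16.2 CPM. The list of 13 imprinted growth genes summed to 1794 CPM and 973 CPM: of 7 ranked members 2 were lower, 5 were within 2-fold, and the median log2 ratio was -0.92, against 0.03 over all ranked genes. Of the 7, 2 reached the share needed for ranking at E14.5 only. Over all ranked genes 0.52% were lower in epithelium and 0.51% in mesenchyme. In mesenchyme the list summed to 5095 CPM and 3264 CPM, with 0 of 11 ranked members called and a median log2 ratio of -0.62. Igf2 (-0.92), Peg3 (-0.90) and Cdkn1c (-0.95) stood just short of 2-fold, and Mest was on the other side (0.49). Igf2bp1 and Hmga2, an RNA-binding protein and a chromatin protein of fetal tissue, had log2 ratios of -1.31 and -1.02, and in mesenchyme of -1.36 and -1.37.

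The lowest ratio belonged to Hbb-y, an embryonic beta-like globin of red blood cells (chr7:103851749-103853216), at 587 CPM and 2.91 CPM in epithelial cells and 1180 CPM and 2.85 CPM in mesenchymal cells. It had the same course in both cell classes, and its alpha-like partner Hba-x went from 101 CPM to 0 counts, at least 104-fold lower against a floor of 3 counts. Haemoglobin genes together summed to 8825 CPM and 5582 CPM in epithelial cells. Adult Hba-a1 and Hba-a2, and Hbb-bs and Hbb-bt, are near-identical pairs whose counts can be exchanged. Of the epithelial cells, 23 of the early and 27 of the late stage held over 1% haemoglobin UMIs. The remaining lower genes were Ifitm1, Capn6, Lmo4, Nfia and Palmd, with log2 ratios from -1.50 for Ifitm1 to -1.02 for Palmd and Nfia.

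The ameloblast lineage list was read next. Its 13 genes summed to 90.9 CPM (76.6 to 107) in the early and 537 CPM (511 to 563) in the late epithelium. In mesenchyme the list was lower but also rose, from 14.49 CPM to 65.6 CPM. The log2 ratio of these sums, with no CPM added, was 2.56 (2.32 to 2.82) in epithelium and 2.18 (1.69 to 2.69) in mesenchyme. The rise of the summed list was thus not particular to epithelium. The 3 genes ranked in epithelium, Vwde, Satb1 and Sp6, reached the share of cells at E16.5 only, so their direction follows from the filter. They are among the 15 highest ratios and, at 172, 220 and 106 CPM, held most of the list's E16.5 sum. The rise of the sum in epithelium thus largely restates these 3 genes and is no support for a rise of the lineage. Amelx, encoding the enamel protein amelogenin, had no UMI in the early epithelium and 1 in the late. The enamel proteases Mmp20 and Klk4, and Dspp, a gene of dentin matrix, had none at either stage, with upper bounds of the exact Poisson interval at 2.34 CPM and 1.19 CPM. Ambn, encoding ameloblastin, had 0 UMIs at E14.5 and 50 at E16.5 (16.2 CPM), at least 8.48-fold higher against the floor of 3 counts. In mesenchyme Ambn was at 7.25 CPM and 33.6 CPM, above the epithelial level at either stage. Enam, another enamel matrix gene, was at 3.81 CPM and 4.85 CPM with overlapping intervals, and Odam, an ameloblast-associated secreted protein, was at 40.7 CPM and 15.2 CPM.

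The 12 dental identity genes summed to 736 CPM (695 to 780) and 1085 CPM (1048 to 1122) in epithelium, a log2 ratio of 0.56 with no CPM added. In mesenchyme they summed to 191 CPM (177 to 206) and 408 CPM (379 to 439), a larger log2 ratio of 1.10. There 3 members were ranked, and these 3 were at least 2-fold higher at E16.5. Of the 7 ranked in epithelium, Msx2, Sp6, Dlx3 and Dlx2 were at least 2-fold higher, but Msx2, Sp6 and Dlx3 reached the share of cells at E16.5 only. Over all ranked genes 2.12% were higher in epithelium and 2.89% in mesenchyme. Pitx1 (-0.40) and Lef1 (-0.57) had log2 ratios below 0 and within 2-fold. Of the members that were not ranked, Irx1 (-0.49), Irx2 (-0.31) and Sox2 (given below) were below 0. Foxi3 (0.003) and Ascl5 (0.05) were near 0. Lef1, a Wnt effector, was at 62.9 CPM and 39.1 CPM in epithelium but at 87.2 CPM and 189 CPM in mesenchyme.

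Sox2, the stem cell factor of the cervical loop (chr3:34650405-34652461), was found in 68 of 787 cells at E14.5 (8.64%, 6.77 to 10.8%) and 28 of 1546 at E16.5 (1.81%, 1.21 to 2.61%). Before thinning the shares were 20.7% and 7.48%. Its level was 49.6 CPM (39.2 to 61.8) and 10.0 CPM (6.81 to 14.2), 4.94-fold lower, although it missed the share of cells needed for ranking and lies within the noncoding Sox2ot on the same strand. This log2 ratio, -1.57, was -0.91 with another random draw, -1.26 over all UMIs without thinning, and -0.72 when the rule required at least 4 epithelial genes. Of the other cervical loop genes, Lgr5, a Wnt receptor partner, was at 9.53 CPM and 1.94 CPM. Sfrp5, a secreted Wnt antagonist, had 0 and 42 UMIs, at least 7.13-fold higher at E16.5. Igfbp5 was at 342 CPM and 722 CPM in epithelium, with a log2 ratio of 1.05 in both epithelium and mesenchyme. Bcl11b, a transcription factor of the labial epithelium, was at 110 CPM and 131 CPM, and Acta2, smooth muscle actin, at 5.72 CPM and 11.97 CPM.

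Meis2 and Krt15 were lower at E16.5. They were taken here as marks of epithelium outside the tooth, but this was not tested. The E16.5 cells with a UMI of either also held Vwde, Gnrh1 and Sostdc1 UMIs. Whether the lower levels reflect a loss of epithelium outside the tooth was not tested either. Meis2 was at 79.4 CPM (66.1 to 94.6) and 6.47 CPM (3.95 to 9.99), and Krt15 at 58.5 CPM and 16.2 CPM. Among the other genes of oral or stratified epithelium, Krt6a, a keratin, had 26 and 7 UMIs (log2 ratio -1.11). Krtdap was also lower at E16.5, at 38.1 CPM and 16.2 CPM. Others went the other way: Nr2f2 was at 122 CPM and 185 CPM, and Sbsn, Krt10 and Lor had log2 ratios of 0.39, 0.35 and 0.23. Krt1 (-0.05) and Sprr1a (-0.04) were near equal. Nr2f2 alone of the list was ranked. Krt4 and Krt13, keratins of the oral lining, had no UMI at either stage. The 15 genes of the list summed to 376 CPM (346 to 408) and 307 CPM (288 to 327). Leaving out every cell with a Krt15 or Meis2 UMI gave 63 higher and 15 lower genes of 2904 ranked (2.17% and 0.52%).

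**Figure D3:**
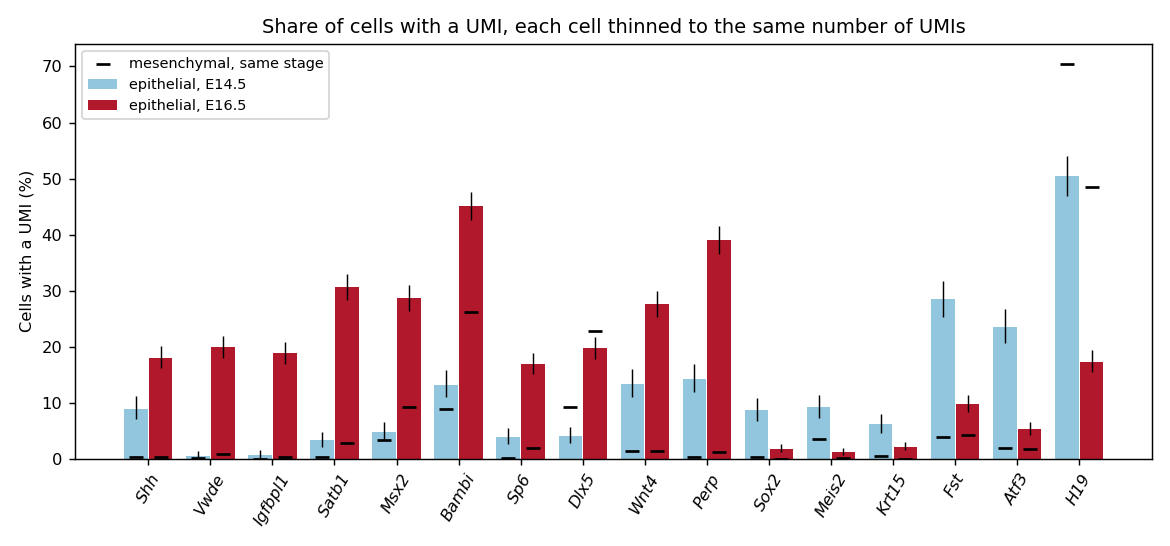
Percent of thinned epithelial cells with a UMI of each gene at E14.5 (light blue bars) and E16.5 (red bars), with exact 95% intervals; black dashes give the share in mesenchymal cells of the same stage. Vwde and Igfbpl1 stand below 1% at E14.5 and near 19% at E16.5, Sox2, Meis2 and Krt15 show the reverse order, and H19 and Dlx5 are the genes whose mesenchymal share exceeds the epithelial one at both stages.

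Signalling genes were compared by pathway. Over all 2883 ranked genes 2.12% were called higher and 0.52% lower, so a short list with no member called is near that share. Shh, the enamel knot and inner enamel epithelium ligand (chr5:28456815-28467256), was at 85.8 CPM (71.9 to 102) and 179 CPM (164 to 194), just short of 2-fold with 10 CPM added (log2 ratio 0.98), and was found in 70 of the E14.5 cells (8.89%) and 279 of the E16.5 cells (18.05%). Before thinning the shares were 13.5% and 30.1%, and E16.5 mesenchyme had 0.342%. Ptch1, its receptor and target, was at 130 CPM and 216 CPM, and none of the 4 ranked hedgehog genes was called. Gli1, a target of the pathway, was at 32.4 CPM and 34.9 CPM.

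Fgf4, an enamel knot ligand, showed the opposite course to Shh, with 25 UMIs in 20 cells at E14.5 and 3 UMIs in 2 cells at E16.5. With no CPM added this is a ratio of 0.061 (0.012 to 0.200). Fgf9 was at 20.3 CPM and 27.5 CPM with overlapping intervals. The receptors Fgfr1 and Fgfr2 had log2 ratios of 0.87 and 0.84, and Dusp6, a target of the pathway, -0.97. None of the 5 ranked FGF genes was called.

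Wnt4 was the one called of 5 ranked Wnt genes, at 77.5 CPM (64.4 to 92.5) and 211 CPM (195 to 228), and was found in 13.3% and 27.6% of cells against 1.37% of E16.5 mesenchymal cells. Among the low genes of this pathway Sp5, a Wnt target, was at 31.1 CPM and 6.47 CPM, and Axin2, another, at 20.3 CPM and 12.3 CPM. Of 11 ranked BMP and TGF-beta genes, Bambi and Id4 were higher and Fst lower. Id1 and Id2, the common read-outs of BMP signals, were near equal, with log2 ratios of 0.02 and 0.08, and Id3 had 0.54. Sostdc1, a BMP and Wnt antagonist, was at 464 CPM and 745 CPM. Notch2, a receptor, was at 40.7 CPM and 98.0 CPM, and Hes1, a Notch target, at 245 CPM and 181 CPM. Neither ranked ectodysplasin pathway gene was called.

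Among cell contact genes, Gja1 and Perp were higher. Gja1, the gap junction protein connexin 43, was at 292 CPM (266 to 320) and 755 CPM (724 to 786), and Perp, a desmosomal protein, at 85.1 CPM and 271 CPM. Of 6 ranked junction genes 2 were called, and the median log2 ratio was 0.49, but 3 of the 6 reached the share of cells at E16.5 only. Over all ranked genes 2.12% were called higher and 0.52% lower. Cldn10, a tight junction gene just below the share needed for ranking, was at 21.6 CPM and 64.0 CPM. Basement membrane genes and integrins had a median of 0.39 with 0 of 9 called, Col17a1 at 0.84 standing highest and Itga6 at -0.46 lowest. No call among 9 genes is near the share over all ranked genes and is no result.

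In summed level, mitosis and actomyosin genes differed little, but the share of cells with 3 or more mitosis UMIs was lower at E16.5. The log2 ratios of their summed levels were -0.12 and -0.05, with counting intervals below 0 for both. The 10 mitosis genes were ranked and none was called, with summed levels of 2253 CPM (2180 to 2329) and 2071 CPM (2021 to 2123), whereas in mesenchyme they summed to 2800 CPM and 1718 CPM. The share of epithelial cells with 3 or more of their UMIs was 56.8% at E14.5 and 46.4% at E16.5. Of 17 ranked actomyosin genes none was called. Over all 2883 ranked genes 2.12% were called higher and 0.52% lower, so no call in lists this short is near that share and is no result. Myh9, a non-muscle myosin heavy chain, was at 85.1 CPM and 99.3 CPM, and Myh10 at 120 CPM and 133 CPM. The glycolysis list summed to 4621 CPM and 3915 CPM with 0 of 11 called, Slc2a1, a glucose transporter, having the lowest ratio (-0.75). The ribosomal protein genes had a median of -0.11 with 0 of 84 called. Of the 13 mitochondrially encoded genes mt-Nd3 and mt-Nd4l were higher, at 1.41 and 1.46, and in mesenchyme at 1.63 and 1.21.

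**Figure D4:**
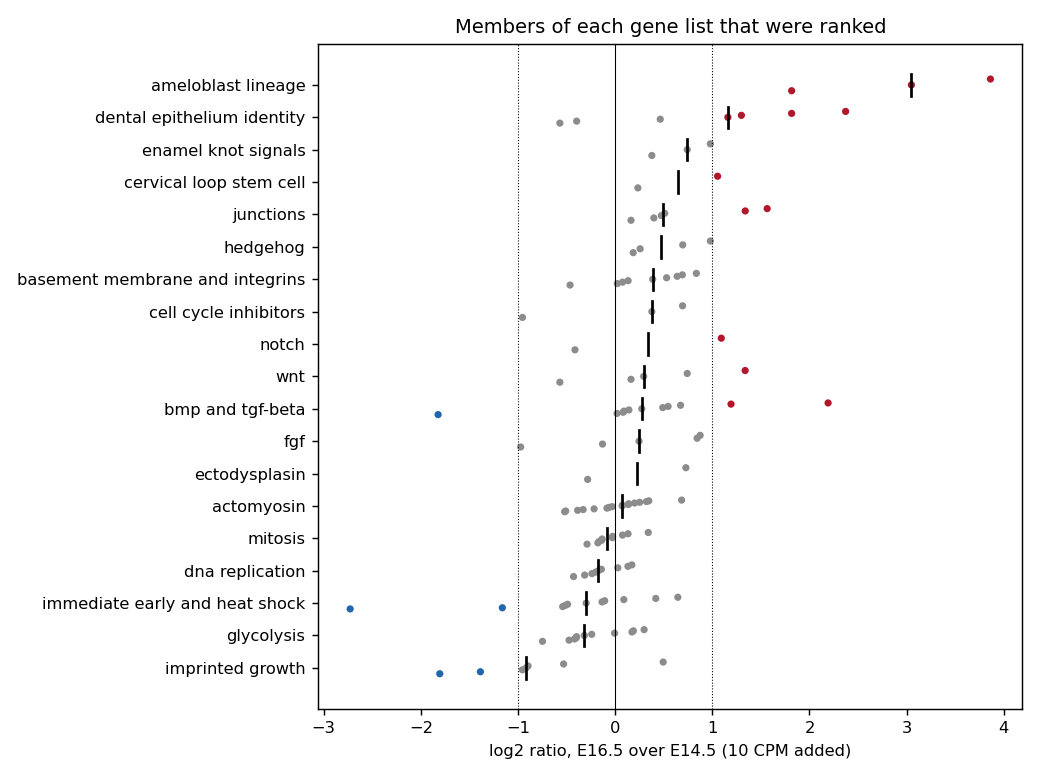
log2 ratio of E16.5 over E14.5 for each ranked member of 19 gene lists, 1 point a gene, with the list's median as a black bar and dotted lines at a 2-fold difference. Red points are at least 2-fold higher and blue points at least 2-fold lower at E16.5. The 3 ranked ameloblast genes entered through their share of cells at E16.5 alone. The imprinted list has its median at -0.92, whereas mitosis and actomyosin genes cluster around 0.

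The genes of E16.5 were then traced to cells. Of 307 thinned E16.5 cells with a Vwde UMI, 47.2% also had an Igfbpl1 UMI, 49.5% a Satb1 UMI, 66.8% a Bambi UMI and 45.3% a Shh UMI. In E16.5 cells without Vwde the shares were 11.8% for Igfbpl1, 26% for Satb1, 39.7% for Bambi and 11.3% for Shh. Igfbpl1, Satb1, Bambi and Shh UMIs were thus more frequent in cells with Vwde than in the rest. Of 283 cells with a Dcn UMI, 67.1% had a Sostdc1 UMI and 41.3% a Wnt4 UMI, against 48.2% and 24.5% of cells without Dcn, while 10.95% had a Shh UMI, against 19.6%. Vwde was about as frequent in cells with Dcn (18.7%, 14.4 to 23.8%) as in those without (20.1%). Of 28 cells with a Sox2 UMI, 7 had a Cldn10 UMI and 1 had a Vwde UMI. These shares all come from 1 matrix and depend on detection at 2000 UMIs, and are descriptions.

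**Figure D5:**
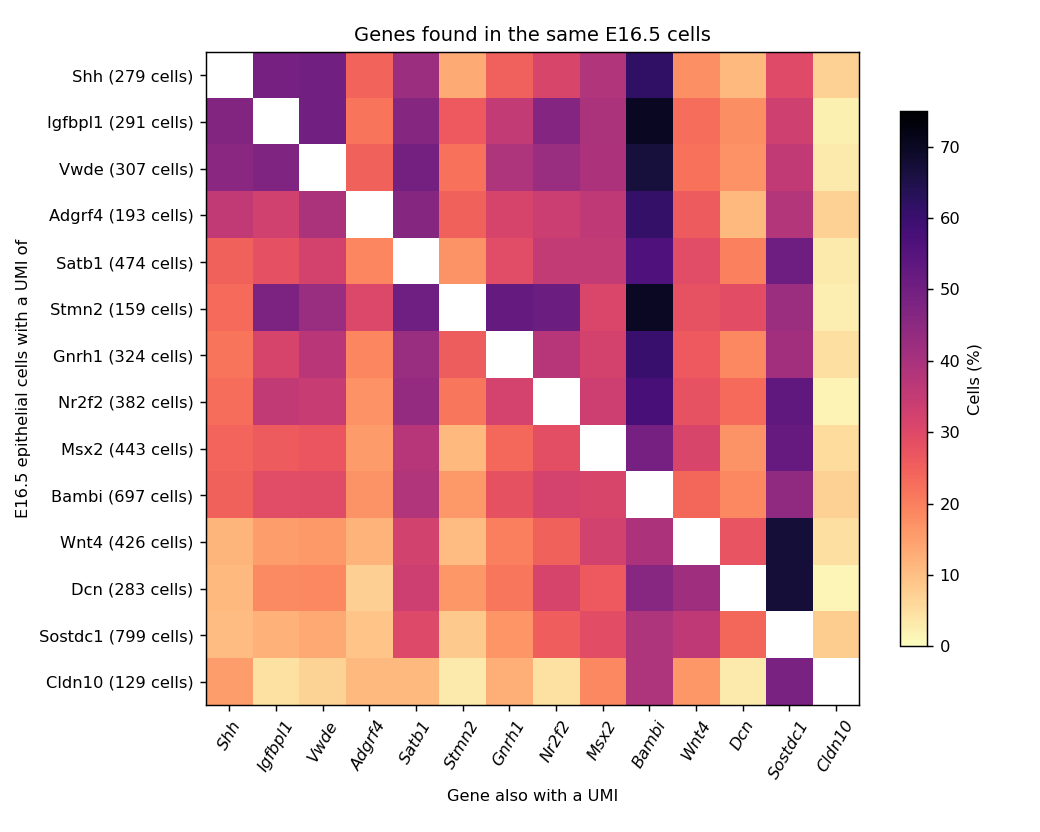
Percent of E16.5 epithelial cells with a UMI of the row's gene that also had a UMI of the column's gene, after thinning; the number of cells is given for each row. Shh, Igfbpl1 and Vwde form a dark block in the upper left, and Wnt4 and Dcn cells share Sostdc1.

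A Vwde or Igfbpl1 UMI was found in 9 thinned E14.5 cells (1.14%, 0.52 to 2.16%) and in 453 at E16.5 (29.3%, 27.0 to 31.6%). The other 13 of the highest genes were at least 2-fold higher at E16.5 in the cells without either UMI too, 778 at E14.5 and 1093 at E16.5. Satb1 was at 17.99 CPM and 148 CPM in these, Msx2 at 25.1 CPM and 149 CPM, and Bambi at 73.3 CPM and 262 CPM. Shh was at 75.8 CPM and 68.6 CPM there. Leaving out cells with either UMI removed 29.3% of the E16.5 but 1.14% of the E14.5 cells. At E16.5 Shh was more frequent in cells with Vwde than in the rest. The Shh levels therefore depend on this choice of cells, and no conclusion is drawn from them. Of the 15 lower genes, all had lower levels at E16.5 in the cells without either UMI, and 8 were at least 2-fold lower.

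Cells with a Shh UMI, 70 at E14.5 and 279 at E16.5, were compared in the same genes. Fst was at 814 CPM (672 to 978) in the E14.5 and 21.5 CPM (11.1 to 37.6) in the E16.5 cells, Fgf4 at 143 CPM (87.3 to 221) and 1.79 CPM (0.045 to 9.99), and Atf3 at 650 CPM (523 to 798) and 25.1 CPM (13.7 to 42.1). Vwde was at 14.3 CPM (1.73 to 51.6) and 491 CPM (435 to 553), Igfbpl1 at 50 CPM and 525 CPM, and Satb1 at 35.7 CPM and 357 CPM. Thus Fst and Fgf4 had higher levels in the Shh cells of the early stage, and Vwde, Igfbpl1 and Satb1 in those of the later stage. These levels are averages over the cells of a group. At E14.5, 5 of the 70 Shh cells already had an Igfbpl1 UMI (7.14%), against 0% of the 717 cells without Shh. A Vwde UMI was found in 2 of the 70 (2.86%), against 0.279%. In the same cells Nfia was at 229 CPM and 21.5 CPM, and Palmd at 100 CPM and 7.17 CPM. Msx2 and Prnp were not 2-fold higher in Shh cells, with log2 ratios of 0.92 and -0.50.

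Cells with a Krt15 or Meis2 UMI, 99 and 52, had all 15 of the highest genes at least 2-fold higher at E16.5, among them Gnrh1 (5.05 CPM and 356 CPM) and Vwde (0 and 23 UMIs), and Sostdc1 was at 354 CPM and 1615 CPM in them. In cells with under 3 mitosis UMIs the counts were 15 and 13, and in those with 3 or more they were 15 and 12. In cells with a Sox2 UMI, 68 and 28, 8 of the highest genes were at least 2-fold higher. The genes counted in these and the preceding groups were picked by their ratio over all of these cells. Their counts within a group of the same cells are therefore descriptions and no support. The share of all ranked genes that changed 2-fold within each group is not given here. Levels in groups of so few cells also rest on few UMIs.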

How the data were processed

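Single-cell libraries (Chromium 3′ v3) of dissected lower incisor buds were aligned by the authors to mm10 with Cell Ranger 4.0.0, and UMI counts per gene and barcode were deposited as 1 matrix per stage over 32285 genes. The deposited counts precede the authors' filter on cells, which was applied here (700 genes or more, up to 20% mitochondrial UMIs). The E11.5 matrix was not used. Each epithelial cell was thinned at random to 2000 UMIs, counts were summed over the cells of a stage, and CPM were computed from the sums, 1574000 UMIs at E14.5 and 3092000 at E16.5. Ratios carry 10 CPM in both terms unless called a fold. Genes detected in 10% or more of the cells of either stage, with 50 counts or more, were ranked, and a log2 ratio of at least 1 in size was called. Intervals are exact 95% Poisson or Clopper-Pearson intervals and cover counting error only. Mesenchymal cells had at least 2 of Pdgfra, Prrx1 and Twist1 and 0 of the 9 epithelial genes (1855 and 882 cells, 1725 and 877 of them thinned). The named genes are the 15 highest and 15 lowest ratios outside the rule's genes, and the called or most abundant members of 29 gene lists. Members and lists were chosen with earlier results of these data known. A result on a marker gene is not reported here. Scripts were tested on simulated data. Python 3.11.15, numpy 2.4.6, scipy 1.17.1, pandas 2.3.3 and, for Scrublet scores, scanpy 1.11.5 were used. Sequences are RefSeq's, and positions are from GENCODE on GRCm38, the build of mm10.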

Additional observations from a re-analysis of the deposited data

How the results depend on the processing

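No paired analysis was possible because each stage is 1 matrix and its cells carry no sample number. The 30 genes with the highest and lowest ratios kept their direction under all 21 alternatives that bear on a gene (20 for Hbb-y), and 21 of them were at least 2-fold changed in every one. These were the 15 higher genes and, of the lower ones, Jun, Ifitm1, H19, Fst, Atf3 and Hbb-y. The 30 genes were picked by their ratio in these same cells. Of the 15 higher, 13 reached the share for ranking at E16.5 only, and of the 15 lower, 11 at E14.5 only. Their kept direction is therefore a description and no support. The other lower genes fell under 2-fold in some alternatives. Several had main log2 ratios close to the cut, such as Hmga2, Nfia and Palmd at -1.02. Hmga2 stayed at least 2-fold lower in 5 alternatives, Nfia and Lmo4 in 6, Palmd in 11, Capn6 in 12, Flrt3 in 17, Igf2bp1 and Grb10 in 19 and Flrt2 in 20. Counts of higher and lower genes were 61 and 15 of 2883 ranked (2.12% and 0.52%). More genes passed the filter at greater depth. Over all UMIs without thinning the counts were 133 and 27 of 7854 (1.69% and 0.34%). As a mean of the cells' own CPM they were 130 and 28 of 7854 (1.66% and 0.36%). At 4000 UMIs they were 97 and 23 of 4997 (1.94% and 0.46%), and at 1000 UMIs 32 and 9 of 1444 (2.22% and 0.62%). With 50 CPM added they were 26 and 6 of 2883 (0.90% and 0.21%). With at least 10 counts and no limit on the share of cells they were 160 and 55 of 11572 (1.38% and 0.48%). With no filter beyond 1 count they were 160 and 55 of 16472 (0.97% and 0.33%). Without cells with 3 or more mitosis UMIs, 84 genes were higher and 25 lower of 2852 (2.945% and 0.88%). The cause was not tested. The share of cells that met the epithelial rule (13.99% at E14.5, 36.7% at E16.5) was 12.2% and 33.1% with at least 200 genes and no mitochondrial limit, 15.3% and 34.7% with a minimum of 1000 genes and a limit of 10% mitochondrial UMIs, 16.8% and 39.6% with at least 2 epithelial genes, 11.9% and 34.6% with at least 4, 12.5% and 33.2% with 0 mesenchymal genes, and 11.1% and 31.6% with the rule applied after thinning, an alternative chosen after seeing the data. Removing cells over 1% haemoglobin UMIs, also chosen after seeing the data, gave 65 and 14 of 2876 genes (2.26% and 0.49%). Scrublet's own threshold called 0 and 2 cells and so had not worked. Without the 5% of cells with the highest scores the counts were 65 and 11 of 2866 (2.27% and 0.38%). Genes under about 10 CPM rest on few UMIs, and their ratios move with the random thinning.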
